A study of Drosophila melanogaster with 3 samples.

Results

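The gene set described here holds 34 genes of the cell cycle and of DNA replication, measured in single cells of the Drosophila melanogaster intestine. Its members were the rows of the count tables whose gene symbol equalled 1 of 34 listed symbols, and all 34 were found among the 17738 genes counted. They were read as 12 S-phase members (PCNA, dUTPase, RnrL, RnrS, Mcm2, Mcm3, Mcm5, Mcm6, Mcm7, dup, geminin and CycE), 14 mitotic members (stg, CycA, CycB, CycB3, Cdk1, polo, aurA, aurB, fzy, Top2, Incenp, BubR1, ncd and Klp61F) and 8 others (CycD, Cdk2, Cdk4, E2f1, Rbf, fzr, dap and HmgD). The study asked when and how the circadian clock arises in the developing intestine. It profiled single cells in 1 droplet library for each of 3 stages. These were a pupa library (labelled Red-eye pupa), an immature adult library (Day 1 Adult) and a mature adult library (Day 7-8 Adult). All 3 groups were labelled Female and CantonS(per01 background), per01 being a loss-of-function allele of the clock gene period, and were dissected at ZT0, the hour of lights on. The methods of the study name the flies of this assay as CantonS only and call the middle stage pharate. Intestines, with foregut and hindgut removed, were pooled and dissociated with elastase, so every stage rests on 1 pool of animals.

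In a dividing cell, Cyclin E starts replication at origins that Double parked has loaded with the MCM helicase, E2f1 turns on the genes of replication and of nucleotide supply, and String, the Cdc25 phosphatase, removes the brake on Cdk1 at the entry into mitosis. In the fly midgut the intestinal stem cells are the main cells that divide. Their daughters either become enterocytes, which copy their DNA without dividing, or enteroendocrine cells, which secrete peptide hormones.

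A unique molecular identifier (UMI) marks 1 captured transcript, and 2013 pupal, 1197 immature adult and 1980 mature adult cells were kept, with a median of 9343, 14661 and 13474 UMIs per cell. Cells were sorted into types by marker genes: a cell was progenitor-gated when it held a UMI of at least 8 of 16 progenitor markers and a larger share of them than of the enteroendocrine, enterocyte, pupal-cell or visceral muscle lists. This gave 384 pupal, 398 immature adult and 270 mature adult progenitor-gated cells, which were 19.1%, 33.2% and 13.6% of the kept cells. Levels are in counts per 1000000 UMIs (CPM): the UMIs of a gene or list over all cells of a gate, scaled to 1000000 UMIs of the same cells. The stem cell and enteroblast factor esg was at 643, 593 and 1012 CPM in them, in the order pupa, immature adult, mature adult. The summed progenitor list was at 11040, 7851 and 9437. Dl, a Notch ligand of intestinal stem cells, was lower at each later stage, at 231, 122 and 29.7. The part of stem cells among the progenitor-gated cells can thus differ between stages, and it was not tested. The pupal progenitor-gated cells also held more RNA of other types: the 10 visceral muscle markers summed to 343 CPM against 6.62 and 4.29 in the adults, with none of the 10 at 0 in the pupa, and the 11 enteroendocrine markers to 339 against 47.4 and 60.8. The male dosage compensation RNA roX1 was at 193 CPM there against 9.55 and 0.165, although the pupa was labelled Female. The 13 enterocyte markers summed to 534, 351 and 1577. The part of these RNAs in the differences between stages was not tested. At most 2 kept barcodes were shared by any pair of libraries.

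The intervals in parentheses are exact 95% Poisson intervals, and those of log2 ratios are exact 95% intervals of a ratio of counts. They cover counting error only, because cells are not replicates and each stage has 1 library, so no stage difference was tested. In sums of this kind, fewer cells in cycle and fewer transcripts per cell cannot be told apart, nor can stage and library.

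The cell cycle transcripts were concentrated in progenitor-gated cells at every stage and were highest in the pupa. The 12 S-phase members summed to 765 CPM (743 to 787) in pupal, 386 (375 to 398) in immature adult and 158 (149 to 169) in mature adult progenitor-gated cells. The 14 mitotic members summed to 867 (844 to 890), 211 (203 to 220) and 193 (182 to 204). The S-phase sum was thus lower at each later stage, whereas the mitotic sum was 4.10-fold lower in the immature adult than in the pupa and close to level between the adults. On the log2 scale the S-phase sum differed by -0.98 (-1.04 to -0.93) between immature adult and pupa and by -1.29 (-1.39 to -1.19) between mature and immature adult. The corresponding differences of the mitotic sum were -2.04 (-2.11 to -1.97) and -0.13 (-0.23 to -0.03). The ratio of S-phase to mitotic UMIs was 1.83 in the immature adult but 0.882 in the pupa and 0.822 in the mature adult. With stg counted, the immature adult was the only stage with more S-phase than mitotic UMIs. In the pupa the larger mitotic count rested on stg, which gave 2219 of 5430 mitotic UMIs, beside 4790 S-phase UMIs. In the mature adult stg gave 28 of 1169 mitotic UMIs, beside 961 S-phase UMIs.

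**Figure D1:**
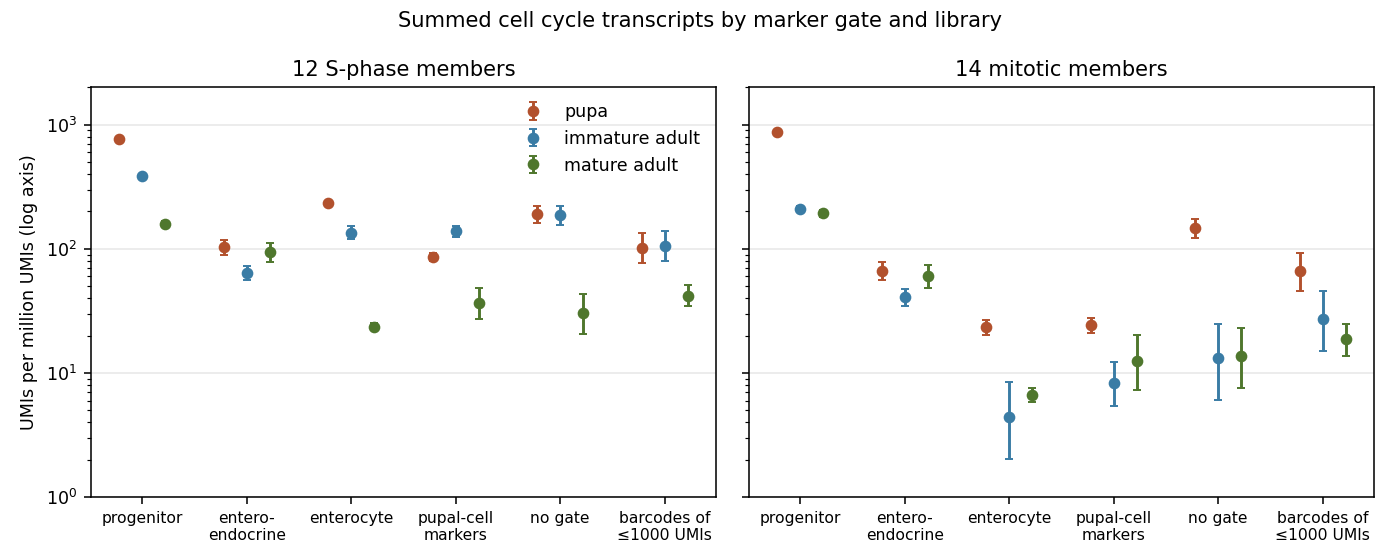
Summed level in CPM (log axis) of the 12 S-phase members (left) and the 14 mitotic members (right) in each marker gate, in cells without a gate and in barcodes of at most 1000 UMIs, for the pupa, immature adult and mature adult libraries; bars are exact 95% Poisson intervals, and the visceral muscle gate, with 15 and 5 adult cells, is left out. In progenitor-gated cells the S-phase sums are 765, 386 and 158 and the mitotic sums 867, 211 and 193, all above the sums of every other gate of the same library.

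Among the S-phase members dUTPase, an enzyme of nucleotide supply, had the most UMIs of its list at every stage. dUTPase, which keeps uracil out of new DNA (genome release 6, chromosome 2L, 11011312 to 11012135, plus strand), was at 315 CPM (301 to 329) in pupal, 137 (131 to 144) in immature adult and 71.7 (65.1 to 78.8) in mature adult progenitor-gated cells. The 3 intervals were apart, and dUTPase alone gave 41.2%, 35.5% and 45.3% of the UMIs of the S-phase list. The subunits of ribonucleotide reductase, which makes deoxyribonucleotides, differed less between pupa and immature adult. RnrL was at 31.0 (26.8 to 35.6), 23.7 (21.0 to 26.6) and 9.07 (6.83 to 11.8). RnrS was at 50.9 (45.5 to 56.8), 42.0 (38.4 to 45.8) and 8.57 (6.40 to 11.2), with overlapping pupal and immature adult intervals. For both subunits the break lay between the adults, with a log2 difference of -1.39 (-1.83 to -0.97) for RnrL and -2.29 (-2.73 to -1.88) for RnrS.

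PCNA, the sliding clamp of DNA polymerases, was at 93.5 CPM (86.1 to 101), 52.0 (48.0 to 56.3) and 11 (8.56 to 14). It was lower at each stage, with log2 differences of -0.85 and -2.24. The 5 MCM genes encode subunits of the helicase that opens DNA at origins and forks. Mcm2 was at 21.9 (18.4 to 25.9), 7.54 (6.06 to 9.27) and 4.45 (2.93 to 6.48). Mcm3 was at 34.3 (29.9 to 39.2), 16.4 (14.2 to 18.9) and 4.95 (3.34 to 7.06). Mcm2 was the only MCM gene with its larger step between pupa and immature adult, at -1.54 against -0.76 on the log2 scale. Mcm5 was at 12.9 (10.3 to 16.1), 9.22 (7.58 to 11.1) and 0.989 (0.363 to 2.15), the last from 6 UMIs. Mcm6 was at 34.6 (30.2 to 39.6), 14.2 (12.1 to 16.5) and 4.62 (3.07 to 6.67), and Mcm7 at 45.0 (39.9 to 50.6), 18.5 (16.2 to 21.1) and 3.79 (2.40 to 5.69). All 5 were lower in the mature than in the immature adult, from -0.76 for Mcm2 to -3.22 (-4.70 to -2.05) for Mcm5.

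The licensing factor dup, which loads the helicase, was at 20.4 CPM (17.0 to 24.3), 14.3 (12.3 to 16.6) and 2.14 (1.14 to 3.66), the last from 13 UMIs. Its inhibitor geminin, whose protein blocks a second round of licensing, was at 80.8 (73.9 to 88.1), 41.7 (38.1 to 45.6) and 35.4 (30.9 to 40.5). The licensing factor and its inhibitor thus had different steps: the log2 difference between mature and immature adult was -2.74 (-3.68 to -1.93) for dup and -0.24 (-0.47 to -0.00) for geminin, the smallest of the 12 S-phase members. CycE, the cyclin that starts S phase, was at 24.3 (20.6 to 28.4), 9.47 (7.80 to 11.4) and 1.65 (0.791 to 3.03). It had the largest difference of the list between mature adult and pupa, -3.88 (-4.97 to -2.96), on 10 UMIs in the mature adult.

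Of all 34 members, stg had the widest range between stages. stg (chromosome 3R, 29251826 to 29255800, minus strand) was at 354 CPM (340 to 369) in pupal, 66.5 (62.0 to 71.3) in immature adult and 4.62 (3.07 to 6.67) in mature adult progenitor-gated cells, from 2219, 794 and 28 UMIs. The log2 difference was -2.41 (-2.53 to -2.29) at the first step and -3.85 (-4.45 to -3.31) at the second, a 76.7-fold lower level in the mature adult than in the pupa. It gave 40.9% of the mitotic UMIs in the pupa and 31.5% in the immature adult. Without stg, the mitotic sum differed between mature and immature adult by 0.38 on the log2 scale, with the opposite sign to the full list.

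The mitotic cyclins did not share one pattern. CycA, which acts from late S phase into mitosis, was at 36.1 CPM (31.5 to 41.1), 27.1 (24.3 to 30.3) and 29.3 (25.2 to 34), overlapping in the adults. CycB, the main mitotic partner of Cdk1, was at 40.2 (35.4 to 45.5), 5.78 (4.5 to 7.32) and 5.28 (3.61 to 7.45). CycB3, whose destruction ends mitosis, was at 12.4 (9.84 to 15.5), 4.44 (3.33 to 5.81) and 7.91 (5.83 to 10.5). CycB was 6.96-fold lower in the immature adult than in the pupa, CycB3 2.80-fold and CycA 1.33-fold. Cdk1, the kinase that they activate, was at 14.2 (11.4 to 17.5), 12.5 (10.6 to 14.7) and 9.56 (7.26 to 12.4), and each neighbouring pair of its intervals overlapped.

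The mitotic kinases polo, aurA and aurB were lower in the immature adult than in the pupa, and in CPM none of them differed beyond counting error between the adults. polo, the Polo kinase of spindle and cytokinesis, was at 57.8 CPM (52.0 to 64.0), 8.55 (6.97 to 10.4) and 9.73 (7.40 to 12.5). aurA, the kinase of centrosome maturation, was at 11.8 (9.27 to 14.8), 1.84 (1.16 to 2.79) and 1.32 (0.569 to 2.60). aurB, the kinase of the chromosomal passenger complex, was at 35.0 (30.5 to 39.9), 7.12 (5.69 to 8.81) and 4.95 (3.34 to 7.06). Between immature adult and pupa the log2 differences were -2.76 for polo, -2.68 for aurA and -2.30 for aurB. Counted as UMIs per cell, aurB was also lower in the mature than in the immature adult, at -0.94 (-1.59 to -0.33). fzy, the Cdc20 activator of the anaphase-promoting complex, was alike, at 17.6 (14.4 to 21.2), 4.44 (3.33 to 5.81) and 2.64 (1.51 to 4.28).

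In CPM, a further group of mitotic members was lowest in the immature adult and higher again in the mature adult. Top2, the topoisomerase that untangles sister chromatids (chromosome 2L, 19447365 to 19453490, minus strand), was at 168 CPM (158 to 178), 44.8 (41.1 to 48.8) and 72.4 (65.8 to 79.5). Incenp, the scaffold that holds aurB, was at 47.9 (42.6 to 53.6), 9.97 (8.26 to 11.9) and 18.0 (14.8 to 21.7). BubR1, a kinase-like protein of the spindle checkpoint, was at 27.3 (23.4 to 31.7), 6.45 (5.09 to 8.06) and 11 (8.56 to 14). The mature adult exceeded the immature adult by 0.69 (0.51 to 0.88) for Top2, 0.85 (0.46 to 1.24) for Incenp and 0.78 (0.28 to 1.27) for BubR1 on the log2 scale, beside 0.83 (0.24 to 1.42) for CycB3. As UMIs per cell, the intervals stayed above 0 for Top2 at 0.27 (0.09 to 0.46) and Incenp at 0.43 (0.04 to 0.82), and held 0 for BubR1 at 0.36 (-0.14 to 0.85) and for CycB3 at 0.42. Top2 alone gave 37.6% of the mitotic UMIs of the mature adult. The spindle kinesin Klp61F was at 14.2 (11.4 to 17.5), 7.71 (6.21 to 9.45) and 10.9 (8.41 to 13.8), and the minus-end kinesin ncd at 30.3 (26.2 to 35.0), 3.85 (2.82 to 5.14) and 5.11 (3.47 to 7.25). For ncd the difference between the adults was within counting error, 0.41 (-0.30 to 1.10), and it was the member with the largest difference between immature adult and pupa, -2.98 (-3.47 to -2.50).

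Of the remaining members, most regulators of entry into the cycle and exit from it differed less than 2-fold between stages in CPM. CycD, the growth-linked G1 cyclin, was at 27.8 CPM (23.8 to 32.2), 34.7 (31.4 to 38.2) and 25.2 (21.4 to 29.6). Its partner Cdk4 was at 21.5 (18.1 to 25.5), 17.9 (15.6 to 20.5) and 14.5 (11.6 to 17.9). Cdk2, the partner of Cyclin E, was at 9.74 (7.45 to 12.5), 6.45 (5.09 to 8.06) and 6.59 (4.71 to 8.98). CycD was 1.10-fold and CycE 14.7-fold lower in the mature adult than in the pupa. E2f1, the activating E2F factor, was at 290 (277 to 303), 221 (213 to 229) and 236 (224 to 249), and Rbf, the retinoblastoma-family protein that restrains it, at 24.7 (21.0 to 29.0), 21.7 (19.1 to 24.5) and 24.1 (20.3 to 28.3). The 3 intervals of Rbf overlapped. fzr, the Cdh1-type activator of the anaphase-promoting complex that keeps cells in G1 or in the endocycle, was at 69.6 (63.2 to 76.4), 92.5 (87.1 to 98.1) and 71.4 (64.8 to 78.4). In CPM, fzr and CycD were the 2 members higher in the immature adult than in the pupa, by 0.41 (0.25 to 0.57) and 0.32 (0.06 to 0.58).

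Of the other group, dap and HmgD differed most. dap, the inhibitor of Cyclin E and Cdk2, was at 115 CPM (107 to 124), 41 (37.4 to 44.8) and 38.7 (33.9 to 44.0). HmgD, a chromatin protein of the HMG-box family, was at 919 (895 to 943), 253 (244 to 262) and 219 (207 to 231). They were 2.80-fold and 3.63-fold lower in the immature adult than in the pupa, and near level between the adults. The cyclin-dependent kinase inhibitor was therefore highest where CycE was highest.

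**Figure D2:**
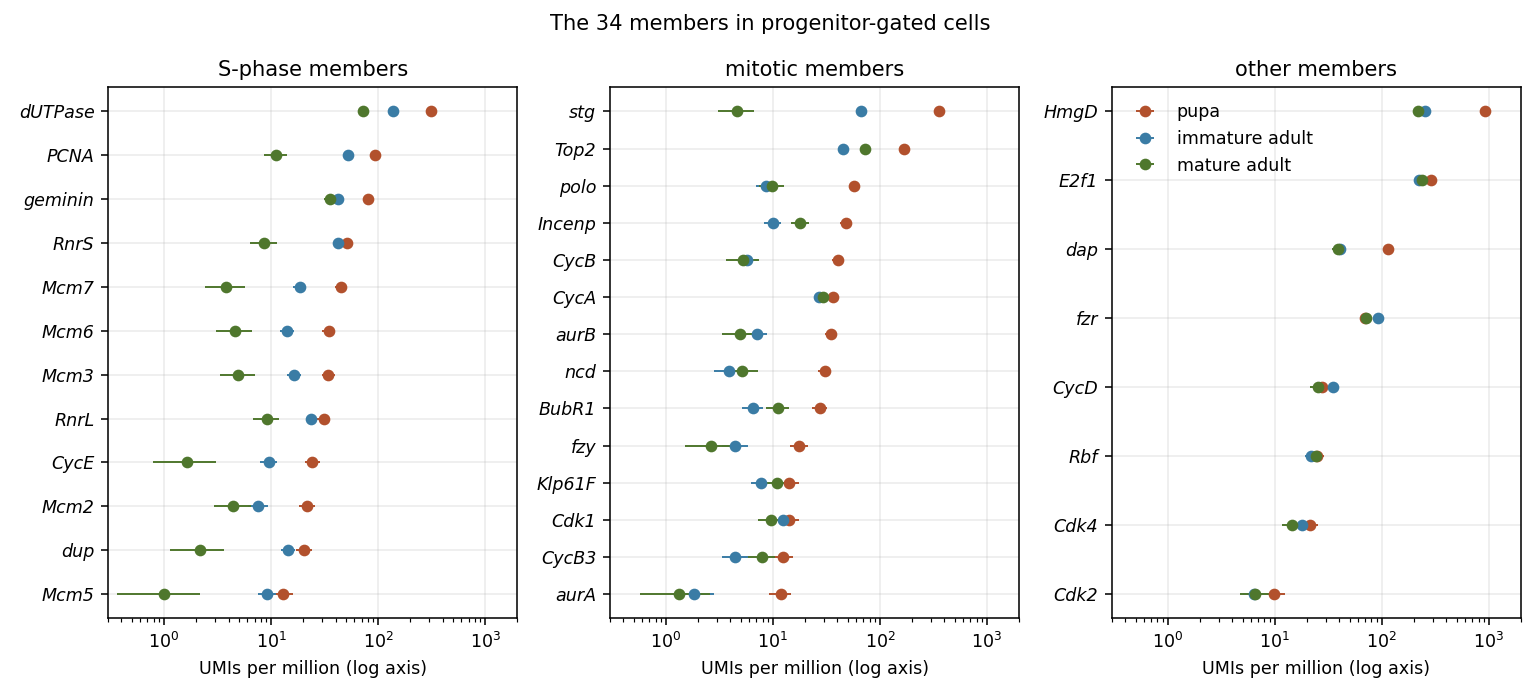
Level of each of the 34 members in progenitor-gated cells of the pupa, immature adult and mature adult libraries, in CPM (log axis), with exact 95% Poisson intervals; S-phase members are on the left, mitotic members in the middle and the others on the right, each ordered by the level in the pupa. The S-phase points are lower at each later stage, stg spans 354 to 4.62, and Top2, Incenp, BubR1 and CycB3 are lowest in the immature adult.

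Counted by a 2-fold difference, 19 of 34 members were lower and 0 higher in the immature adult than in the pupa: 6 of 12 S-phase, 11 of 14 mitotic and 2 of 8 others. Of all 7689 genes with at least 20 UMIs in the cells compared, 22.8% were more than 2-fold lower and 6.19% more than 2-fold higher, with a median log2 difference of -0.34. The median of the mitotic members was -2.17 and that of the S-phase members -1.01. Between mature and immature adult, 10 of 34 members were more than 2-fold lower and 0 higher, against 3.59% lower and 10.3% higher among 7269 genes with a median of 0.18. These 10 were 9 of the 12 S-phase members and stg, and the median was -1.98 for the S-phase and 0.15 for the mitotic members. Between mature adult and pupa, all 12 S-phase, 10 of 14 mitotic and 2 of 8 other members were more than 2-fold lower and 0 were higher, against 20% and 12.1% of 7704 genes with a median of -0.15.

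Genes of the same processes outside the set were counted in the same way. Of 32 other genes of licensing and the replication fork with enough UMIs, 6 were more than 2-fold lower in the immature adult than in the pupa and 12 lower in the mature than in the immature adult, with 0 higher at either step. The first count, 6 of 32, was no larger a share than the 22.8% of all genes, whereas the second stood beside 3.59%. At the first step the clamp loader subunit RfC3 differed by -1.44 (-2.01 to -0.88), the thymidylate synthase Ts by -1.36 (-1.59 to -1.13) and the chromatin assembly subunit Caf1-105 by -1.23 (-1.63 to -0.85). At the second step Ts differed by -4.12 (-5.34 to -3.12), from 273 to 8 UMIs, the fork protein Claspin by -2.37 (-2.92 to -1.86) and the origin subunit Orc1 by -1.97 (-3.08 to -1.01). Of 45 other genes of the spindle and mitotic exit, 23 were more than 2-fold lower and 0 higher in the immature adult than in the pupa, beside 22.8% of all genes lower, led by the condensin subunit Cap-D2 at -2.90 (-3.60 to -2.25), the spindle protein mars at -2.74 (-3.31 to -2.21) and the kinetochore kinesin cmet at -2.73 (-3.15 to -2.33). Between the adults 1 of 44 was lower and 3 were higher, no more than the 3.59% and 10.3% of all genes; the 3 included the anaphase-promoting complex subunit Cdc16 at 1.67 (0.84 to 2.53), from 21 to 34 UMIs, and the cytokinesis kinesin pav at 1.07 (0.54 to 1.61).

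The regulators of the E2F, MuvB and checkpoint list had the fewest such differences of the 3 outside lists. Of 21 such genes, 2 were more than 2-fold lower in the immature adult than in the pupa. This was a smaller share than the 22.8% of all genes. The 2 were Myb, a subunit of the Myb-MuvB complex, at -1.36 (-1.56 to -1.16) and its partner mip130 at -1.13 (-1.51 to -0.76). Between the adults 0 were lower and 1 was higher, mip120 of the same complex, at 1.10 (0.69 to 1.51). Between mature adult and pupa the checkpoint kinase grp was at -1.07 (-1.46 to -0.69), whereas the growth regulator Myc was at 1.09 (1.05 to 1.14), with 2073 CPM in the mature adult against 973 in the pupa. Myc was thus higher in the mature adult, where the S-phase members were lowest.

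How far the stages differed depended on whether UMIs were scaled to CPM or counted per cell, because progenitor-gated cells held a mean of 16315, 29985 and 22466 UMIs at the successive stages. Per cell, the S-phase members summed to 12.5, 11.6 and 3.56 UMIs and the mitotic members to 14.1, 6.33 and 4.33. On this scale the S-phase sum of the immature adult was close to that of the pupa, with a log2 difference of -0.11 (-0.16 to -0.05), while the mitotic sum still differed by -1.16 (-1.23 to -1.09). By member, 12 of 12 S-phase genes were below the pupa in CPM but 7 of 12 per cell. PCNA, RnrL, RnrS, Mcm5 and dup changed sign, at 0.03, 0.49, 0.60, 0.39 and 0.37 per cell. Of the mitotic members 14 of 14 were below the pupa in CPM and 12 of 14 per cell, CycA and Cdk1 being the exceptions. Of the 8 others 2 were above the pupa in CPM and 6 per cell, with CycD at 1.20 (0.94 to 1.46), fzr at 1.29 (1.13 to 1.45), Rbf at 0.69 (0.40 to 0.99) and Cdk4 at 0.61 (0.30 to 0.93). Over all 34 members, 13 were above the pupa per cell, 10 of them with intervals above 0. The second step was deeper per cell, at -1.70 (-1.80 to -1.60) for the S-phase sum, and all 12 S-phase members were lower in the mature than in the immature adult on either scale. The mitotic sum differed between the adults by -0.55 (-0.65 to -0.45) per cell. Of its 14 members, 5 had intervals above 0 and 1 below in CPM, against 2 above and 5 below per cell.

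To count cells rather than transcripts, each cell was thinned to 2000 UMIs and called positive for a list when it held UMIs of at least 2 of its members. Positive for S-phase transcripts were 27.4% of pupal (exact binomial 95% interval 22.9 to 32.1), 15.8% of immature adult (12.3 to 19.7) and 3.59% of mature adult progenitor-gated cells (1.82 to 6.81). Positive for mitotic transcripts were 31.9%, 5.11% and 5.62%, and with stg left out 19.7%, 3.18% and 5.34%. S-phase positive cells were fewer at each later stage, as in the sums. The call depends on the level in a cell, so these shares are not a measure separate from the sums. Mitotic positive cells were fewer in either adult than in the pupa, and the intervals of the adults overlapped. Without thinning the S-phase shares were 84.1%, 79.1% and 56.3% and the mitotic shares 83.9%, 72.6% and 62.2%, in cells whose median depths were 14995, 29255 and 19947 UMIs.

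Other gates set the level that can be reached outside the progenitors. Enterocyte-gated cells were positive for mitotic transcripts in 0.184% of pupal, 0 of immature adult and 0.113% of mature adult cells at the same depth. For S-phase transcripts the same cells reached 7.87%, 3.82% and 0.202%, and the part of free RNA in these shares was not tested. Enteroendocrine-gated cells were at 2.36%, 0.900% and 0.918% for S-phase and at 0.968%, 0.0950% and 0.153% for mitotic transcripts. Barcodes of at most 1000 UMIs had 102, 106 and 42.0 CPM of S-phase members and 66.1, 27.4 and 18.7 of mitotic members. Both were below the progenitor sums of the same library. The paper counts these barcodes among its cells before filtering, so they can hold shallow cells as well as free RNA. They are not a measure of free RNA alone. The S-phase sum of enterocyte-gated cells was above that of these barcodes in the pupa, at 233 (223 to 243) against 102 (76.6 to 133). In the immature adult the intervals overlapped, at 135 (120 to 152) against 106 (79.5 to 138), and in the mature adult the enterocyte-gated cells were below the barcodes.

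**Figure D3:**
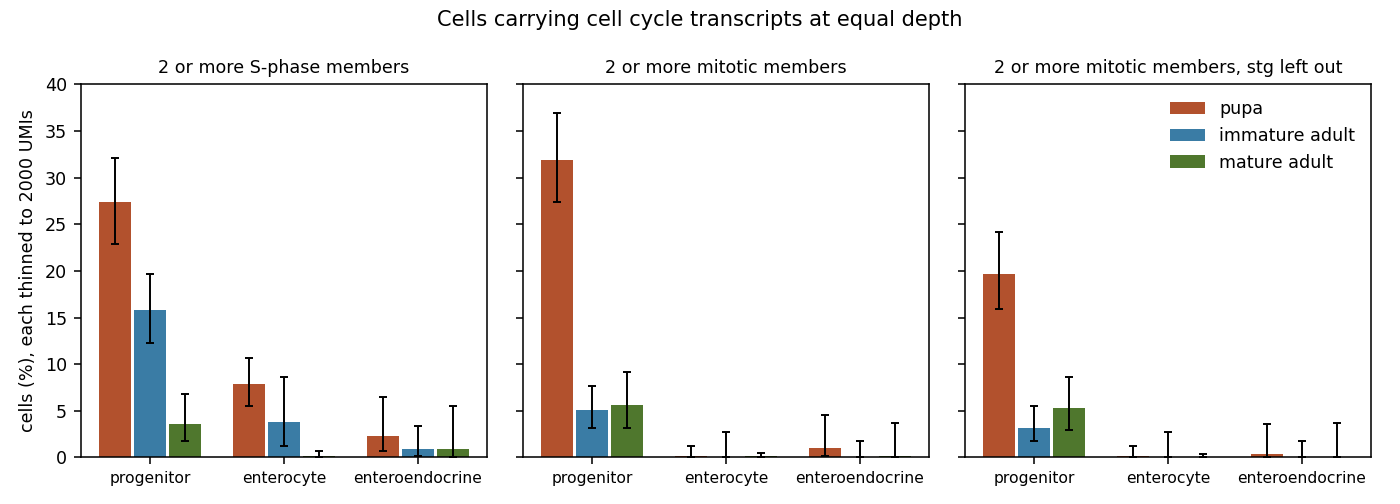
Share of cells (%) with UMIs of at least 2 S-phase members (left), at least 2 mitotic members (middle) or at least 2 mitotic members with stg left out (right), in progenitor-, enterocyte- and enteroendocrine-gated cells of each library, every cell thinned to 2000 UMIs; bars are means of 20 draws and error bars exact binomial 95% intervals. Progenitor-gated cells show 27.4%, 15.8% and 3.59% for S-phase and 31.9%, 5.11% and 5.62% for mitotic members, and the mitotic bars of enterocyte-gated cells are at or below 0.184%.

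Progenitor-gated cells holding both lists were most frequent in the pupa, where each list was also found in the largest share of cells. The joint share that the separate shares would give was not computed. At 5000 UMIs per cell, 31.3% of 383 pupal cells (26.7 to 36.2) held at least 2 members of each of the S-phase list and the mitotic list without stg, against 5.50% of 381 immature adult (3.44 to 8.30) and 4.12% of 238 mature adult cells. Cells with the S-phase list alone were 24.9%, 30.1% and 9.92%, and cells with the mitotic list alone 11.8%, 6.64% and 16.8%. In both adults most S-phase positive cells thus held fewer than 2 mitotic members, with stg left out. Some of these cells still held a mitotic UMI. In the mature adult the intervals of the mitotic list alone (12.3 to 22.2) and the S-phase list alone (6.57 to 14.6) overlapped. In the pupa, mitotic transcripts were found in 55.7% of S-phase positive and 26.9% of S-phase negative cells, in the immature adult in 15.5% and 10.3%, and in the mature adult in 29.3% and 19.6%. The intervals of each pair were apart in the pupa and overlapped in both adults.

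Cells with stg and cells with S-phase transcripts overlapped only in part. Without thinning, dUTPase had a UMI in 88.3%, 82.4% and 63.3% of progenitor-gated cells and stg in 85.4%, 43.7% and 6.67%. At equal depth stg had a UMI in 66.6% of pupal, 18.9% of immature adult and 1.74% of mature adult progenitor-gated cells at 5000 UMIs. The stg share was thus lower at each later stage by more than its intervals. In the pupa 59.7% of cells with a stg UMI were S-phase positive (53.3 to 65.7) against 49.2% of cells without one (40.3 to 58.2), and 45.0% against 39.4% held at least 2 other mitotic members. In the immature adult the S-phase positive shares were 43.6% with and 33.7% without a stg UMI. These pairs of intervals overlapped. Cells strongly positive for 5 or more members were 10.5%, 6.15% and 0.420% for the S-phase list and 7.90%, 0.118% and 0.378% for the mitotic list without stg. Cells with 5 or more of each were 1.83% of the pupal cells. At 2000 UMIs per cell, the 10% of cells richest in S-phase transcripts held 39.7%, 46.0% and 52.0% of the S-phase UMIs. Such a share is larger where cells hold fewer S-phase UMIs, so these values cannot be compared between stages. The share that random sampling alone would give was not computed.

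**Figure D4:**
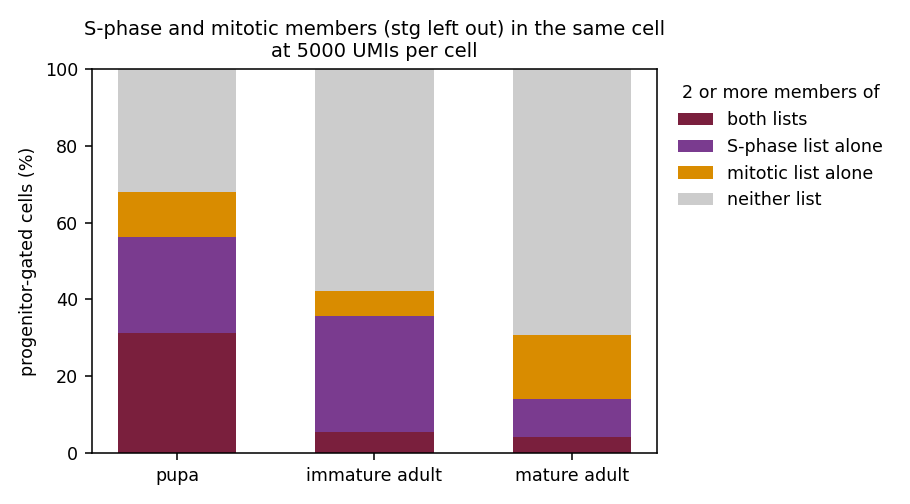
Progenitor-gated cells (%) of each library, thinned to 5000 UMIs, that held UMIs of at least 2 S-phase members, at least 2 mitotic members (stg left out), both or neither; each bar is the mean of 20 draws and sums to 100%. Cells with both make up 31.3%, 5.50% and 4.12%, and cells with neither 32.0%, 57.8% and 69.1% of the pupa, immature adult and mature adult.

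The progenitor-gated cells were also divided by genes outside the set, each cell being scored in 1 draw of 2000 UMIs. Dl, the Notch ligand of intestinal stem cells, had a UMI in 120 pupal, 46 immature adult and 25 mature adult cells. The mitotic sum was 1019 CPM (974 to 1065) in pupal cells with Dl and 799 (773 to 826) in those without, and 429 (396 to 465) against 182 (174 to 190) in the immature adult. The S-phase sum was 775 against 760 in the pupa, with overlapping intervals, and 512 (476 to 551) against 369 (358 to 381) in the immature adult. In summed UMIs, cells with Dl were therefore richer in mitotic transcripts at both stages, and in the immature adult richer in S-phase transcripts too. How far a few of the 46 immature adult cells carried these sums was not tested. In the mature adult the 25 cells with Dl were at 233 (187 to 286) for the mitotic and 141 (106 to 184) for the S-phase sum, both overlapping the cells without. pros, the homeobox factor of the enteroendocrine lineage, was found in 64 pupal progenitor-gated cells, or 16.7%. Their mitotic sum was 1010 (947 to 1075) against 841 (816 to 866) in the cells without pros. The 59 pupal cells with roX1 had a lower S-phase sum, 480 (436 to 528), than the 325 cells without, 812 (788 to 836), and mitotic sums of 760 and 884. Leaving out cells that held at least 50% of another type's markers left the mitotic sum of the immature adult at -2.13 on the log2 scale relative to the pupa.

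Cell cycle transcripts were then set against the number of progenitor markers in a cell, over progenitor-gated, enterocyte-gated and ungated cells. In the pupa the mitotic sum was 29.5 CPM in cells with 0 to 1 of the 16 markers, 65.6 with 5 to 7, 815 with 8 to 10, 1137 (1082 to 1193) with 11 to 13 and 761 (735 to 787) with 14 to 16. The pupal peak lay below the top of the marker range, and the S-phase sum had the same shape, with 882 (835 to 932) at 11 to 13 and 747 (722 to 773) at 14 to 16 markers. In the adults the cells with 14 to 16 markers had sums of 395 and 224 for the immature adult S-phase and mitotic members, and 166 and 206 for those of the mature adult. In mature adult cells with 8 to 10 markers the mitotic sum was 10.1, but these 223 cells had a median of 59555 UMIs, against 26329 in the highest class. Of the 270 mature adult progenitor-gated cells, 233 held at least 75% of the markers and 24 held 8 or 9. Most of the 223 cells were thus outside the progenitor gate. The immature adult classes of 5 to 7 and 8 to 10 markers held 20 and 11 cells, and the mitotic sum of the latter, 224 (90.1 to 462) from 7 UMIs, was level with that of the highest class.

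**Figure D5:**
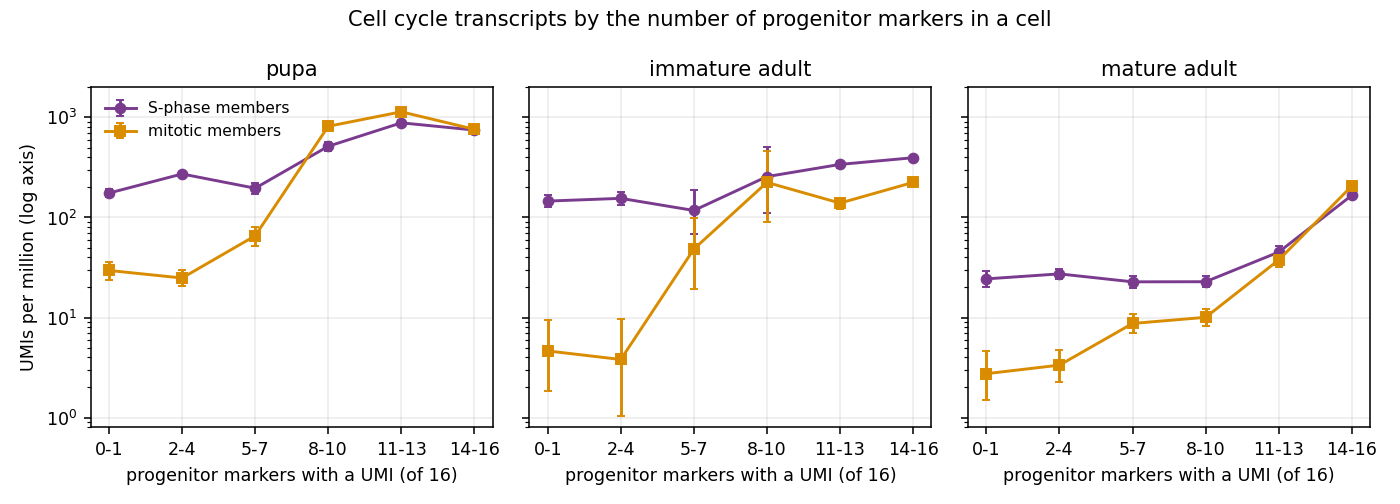
Summed CPM (log axis) of S-phase and mitotic members by the number of the 16 progenitor markers with a UMI in a cell, for progenitor-gated, enterocyte-gated and ungated cells of each library, with exact 95% Poisson intervals. The pupal mitotic sum goes from 29.5 at 0 to 1 markers to 1137 at 11 to 13 and 761 at 14 to 16, and the mature adult sums reach 166 and 206 at 14 to 16.

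Outside the progenitors the S-phase and mitotic members parted. In enterocyte-gated cells the S-phase sum was 233 CPM (223 to 243) in the pupa, 135 (120 to 152) in the immature adult and 23.6 (22.1 to 25.2) in the mature adult, whereas the mitotic sum was 23.4 (20.3 to 26.9), 4.46 (2.04 to 8.46) and 6.68 (5.88 to 7.56). The progenitor-gated cells exceeded them 3.28-fold, 2.86-fold and 6.70-fold for S-phase and 37.0-fold, 47.4-fold and 28.9-fold for mitotic members. Counted by member with a floor of 3 UMIs per gate for genes at 0, 29 of 34 were more than 2-fold higher in pupal progenitor-gated than enterocyte-gated cells, 25 of 34 in the immature adult and 31 of 32 with enough UMIs in the mature adult, and 0 were more than 2-fold lower. The share of all genes more than 2-fold higher was 44.2%, 39.1% and 59.7%, and more than 2-fold lower 17.3%, 23.2% and 15.5%. The median log2 difference of the mitotic members was 5.58 in the pupa, against 1.96 for the S-phase members and 0.73 for all genes.

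Single members show the same division in enterocyte-gated cells. PCNA was at 50 CPM (45.3 to 54.9), 26.2 (19.7 to 34.3) and 1.19 (0.870 to 1.60), and RnrS at 43.0 (38.7 to 47.7), 23.3 (17.1 to 30.9) and 2.65 (2.16 to 3.22). Pupal enterocyte-gated cells thus had RnrS near its pupal progenitor level of 50.9, and the difference was 0.24 on the log2 scale, the smallest of the 34 members. stg was at 1.06 (0.484 to 2.01), 0.495 and 0.133 in the same cells, from 9, 1 and 5 UMIs. CycB had 4, 0 and 1 UMIs and fzy 1, 0 and 1. In the immature adult 11 of the 14 mitotic members had no UMI among the 2019417 UMIs of these 138 cells, where 3 UMIs would be 1.49 in CPM. Of the mitotic members Top2 had the most UMIs in enterocyte-gated cells, 124, 7 and 115, at 14.6 (12.1 to 17.4), 3.47 (1.39 to 7.14) and 3.05 (2.52 to 3.66).

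In enteroendocrine-gated cells, of which there were 156, 217 and 102, the S-phase sum was 103 CPM (89.6 to 118), 64.2 (56.4 to 72.8) and 93.8 (78.5 to 111), and the mitotic sum 66.4 (55.7 to 78.6), 40.6 (34.5 to 47.5) and 60.4 (48.3 to 74.7). Neither sum was lower in the mature adult than in the immature adult, unlike the S-phase sum of the progenitor-gated cells. The S-phase sum was level with that of the barcodes of at most 1000 UMIs in the pupa, below it in the immature adult and above it in the mature adult. E2f1 was at 177 (159 to 196), 232 (217 to 248) and 243 (218 to 270), and in both adults its interval overlapped that of the progenitor-gated cells. HmgD was at 252 (231 to 275), 76.3 (67.7 to 85.5) and 136 (118 to 157), and dap at 50.8 (41.5 to 61.5), 5.50 (3.41 to 8.41) and 12.1 (7.04 to 19.3). RnrS in the mature adult, at 27.0 (19.1 to 37.1), came from 38 UMIs in 15 cells, and aurA, at 14.9 (9.24 to 22.8), from 21 UMIs of which 1 cell gave 11.

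Cells with the pupal-cell markers had S-phase sums of 85.7 CPM (79.5 to 92.2), 138 (125 to 152) and 36.9 (27.4 to 48.7) and mitotic sums of 24.3, 8.35 and 12.6. They were the only gate whose S-phase sum was higher in the immature adult than in the pupa. The make-up of this gate, with 705, 227 and 75 cells, differed between stages. Its pupal-cell markers summed to 162868, 17995 and 7151 CPM and its enterocyte markers to 7274, 9620 and 16568. The stages of this gate are therefore not the same kind of cell. Visceral muscle cells were few: 80 pupal cells gave 55.6 (42.1 to 72.0) for S-phase and 22.4 (14.2 to 33.7) for mitotic members, and the 15 and 5 adult cells gave 3 and 0 S-phase UMIs. Cells without a gate were at 191, 186 and 30.6 for the S-phase and 146, 13.2 and 13.8 for the mitotic members. In the pupa 1 of these cells held 27 of 119 mitotic UMIs, and the sum without it was 114.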

How the data were processed

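Members and lists were chosen with earlier results of these data known. The deposited UMI counts were made by the authors with Cell Ranger 3.0.2 on Drosophila genome release 6.25, from 10x Genomics 3′ (v3.1) libraries, and count whole transcripts per gene and barcode, without normalization. The count tables held 3816, 2625 and 6835 barcodes, and the limits of the study were applied: a mitochondrial share under 25%, between 200 and 4000 genes and between 1000 and 100000 UMIs.

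Each kept cell took the type whose marker list had the largest share of genes with a UMI, when at least 50% were present and no other list tied; this rule was set after the counts were seen, and the marker lists rest partly on genes that the study found in these libraries. No member is a marker. Doublets were not called; an alternative left out the deepest 5% of cells. Summed counts were scaled to 1000000 UMIs (CPM), with exact Poisson intervals, and ratios were given for genes with at least 20 UMIs in the cells compared, with a floor of 3 UMIs for a gene at 0. Shares are means of 20 random thinnings to 2000 UMIs, with Clopper-Pearson intervals from the rounded mean. Members were named in all cases, and of each outside list the 3 genes with at least 50 UMIs and the largest ratio. Of 36, 50 and 23 outside genes listed, 33, 46 and 22 symbols were found. Positions came from the BDGP6 annotation, which held all 34 members and 17599 of the 17738 gene identifiers. Alternatives changed the filters, gates, thinning, member number, scaling and weighting of cells; UMIs per cell was chosen after seeing the data. The steps were tested on simulated data and run with Python 3.11.15, numpy 2.4.6, scipy 1.17.1, pandas 2.3.3 and matplotlib 3.10.9.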

Additional observations from a re-analysis of the deposited data

Results flagged for a closer look

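Several members differed between stages in opposite directions in progenitor-gated cells and in another gate, with both 95% counting intervals clear of 0. The difference between gates was not tested in any of these cases, and each gate of a stage comes from 1 library. RnrS was lower in the mature adult in progenitor-gated cells, at -2.29 against the immature adult and -2.57 against the pupa on the log2 scale, and higher in enteroendocrine-gated cells, at 1.78 and 2.09, on 38 UMIs in 15 cells. aurA in the mature adult relative to the pupa was at -3.16 in progenitor-gated and 1.47 in enteroendocrine-gated cells, where 1 cell gave 11 of 21 UMIs. Mcm5 in the immature adult relative to the pupa was at -0.49 in progenitor-gated and 1.40 in enterocyte-gated cells, on 10 UMIs against 16. E2f1 in the immature adult relative to the pupa was at -0.39 in progenitor-gated and 0.39 in enteroendocrine-gated cells, and in the mature adult relative to the pupa at -0.30 and 0.46. Between mature and immature adult E2f1 was at 0.10 in progenitor-gated and -1.07 in enterocyte-gated cells. fzr in the immature adult relative to the pupa was at 0.41 in progenitor-gated, -0.60 in enteroendocrine-gated and -1.12 in enterocyte-gated cells. HmgD in the mature relative to the immature adult was at -0.21 in progenitor-gated and 0.84 in enteroendocrine-gated cells.

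Barcodes of 4000 genes or more, which the filter of the study removed, also held cell cycle transcripts. The 6 pupal, 82 immature adult and 84 mature adult barcodes of this kind that passed the progenitor gate had S-phase sums of 1504, 280 and 249 CPM and mitotic sums of 1091, 190 and 153. The mature adult S-phase sum of these barcodes was above that of the kept progenitor-gated cells, 158 (149 to 169). The immature adult sum was below that of its kept cells, 386 (375 to 398). Without an upper limit on genes or UMIs, the S-phase sums of progenitor-gated cells were 806, 350 and 207 CPM. The S-phase difference between the adults thus kept its sign but was smaller without these limits.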

How the results depend on the processing

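Over 118 results, 1083 alternative values were computed: 845 kept their direction and moved by less than the counting interval, 218 moved beyond it with the same sign and 20 changed sign. No paired analysis was possible because each stage has 1 library. With 1 library per stage no result has a replicate error, and members with few UMIs in the mature adult (Mcm5, aurA, CycE and dup) are limited by depth.

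The mitotic sum of the mature relative to the immature adult, -0.13 on the log2 scale, became 0.039 without cells holding 50% of another marker list, 0.053 with equal weight of cells, 0.075 when thinned to 2000 UMIs and 0.38 without stg. As UMIs per cell, the immature adult relative to the pupa was at 0.032 for PCNA, 0.49 for RnrL, 0.60 for RnrS, 0.39 for Mcm5, 0.37 for dup, 0.47 for CycA, 0.28 for Cdk2 and 0.49 for E2f1. The mature adult was at 0.16 for CycA and 0.17 for E2f1 relative to the pupa and at -0.32 for E2f1 relative to the immature adult. Thinned to 2000 UMIs, RnrS and Mcm5 in the immature adult were at 0.19 and 0.22 relative to the pupa. With equal weight of cells CycB3 of the mature adult relative to the pupa was at 0.31. Without an upper limit on genes or UMIs, Klp61F and E2f1 of the mature relative to the immature adult were at -0.017 and -0.018. The cause was not tested, except that the per-cell scale differs from CPM by the mean UMIs per cell.

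The sums and shares of either adult relative to the pupa kept their sign under every alternative run. The S-phase sum of the immature adult relative to the pupa was -1.20 without upper limits on genes and UMIs, -0.81 without the deepest 5% of cells, -0.85 with equal weight of cells, -0.85 without the 50 most abundant genes in the total, -0.81 when thinned to 2000 UMIs, -0.11 as UMIs per cell and -1.09 without RnrL and RnrS. The S-phase sum of the mature adult relative to the pupa was -1.96 without upper limits, -2.05 without the deepest cells, -2.10 with equal weight, -2.09 when thinned and -1.81 per cell. The mitotic sum of the immature adult relative to the pupa was -2.11 without upper limits, -2.13 without cells holding 50% of another list, -1.97 without the deepest cells, -1.90 without the 50 most abundant genes, -2.15 when thinned, -1.16 per cell and -1.83 without stg. The mitotic sum of the mature adult relative to the pupa was -2.36 without upper limits, -1.98 without the deepest cells, -2.05 with equal weight, -2.07 when thinned, -1.71 per cell and -1.45 without stg.

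The share of S-phase positive progenitor-gated cells in the immature adult minus the pupa, -11.6 percentage points, was -20.6 at 5000 UMIs and -4.97 without thinning. In the mature adult minus the pupa it was -23.8, and became -11.8 at 1000 UMIs, -42.2 at 5000 UMIs, -34.4 with at least 1 member and -11.2 with at least 3. The mitotic share in the immature adult minus the pupa, -26.8, was -12.4 at 1000 UMIs, -41.7 at 5000 UMIs, -11.2 without thinning, -41.5 with at least 1 member, -12.7 with at least 3 and -16.5 without stg. In the mature adult minus the pupa it was -26.3, and became -12.4 at 1000 UMIs, -38.7 at 5000 UMIs, -39.7 with at least 1 member, -12.3 with at least 3 and -14.4 without stg.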
